A study of Mus musculus with 2 samples.

Results

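The regions described here are 254 promoters that are rich in CpG, the dinucleotide of C followed by G, and yet had no DNase peak in the mouse cerebral cortex. A promoter window was the stretch from 500 bp before to 500 bp after the own start of a gene, which is its outermost annotated 5′ end in GENCODE M21. A gene was taken when it was protein-coding and autosomal, when the CpG observed/expected ratio of its window was at least 0.7, and when no peak of either library lay within 500 bp of any of its annotated starts. These promoters were therefore chosen by the measured peaks, and their lack of a peak is a description and not a finding. They were 254 of 7374 CpG-rich promoters (3.44%, 95% Wilson interval 3.05 to 3.89, which covers counting error only) and 254 of 20807 autosomal coding genes. Of all autosomal coding genes, 7034 (33.8%) lacked a peak.

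Most CpG-rich promoters are CpG islands, stretches that are kept free of DNA methylation and lie open in almost every tissue, and housekeeping genes carry them as a rule. A smaller set of islands belongs to developmental regulators and to genes of the germ line. These islands can be silent in a differentiated tissue: the former are classic targets of Polycomb complexes, which compact chromatin at islands that lack activators, and some of the latter are methylated. DNase I cuts DNA that is not covered by nucleosomes, so an open promoter appears as a peak of cuts.

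The 2 donors were females of B6CASTF1/J, hybrids of the C57BL/6J and CAST/EiJ strains, 10 days old, and each gave nuclei of its left cerebral cortex for 1 library (biological replicates 1 and 2). The animals had no treatment named in the labels, and they form 1 group, so no groups were compared and no p-value was computed. Each library had a smaller and a larger list of peaks, and the larger one was used, with 109563 peaks in replicate 1 and 121943 in replicate 2. The number of reads was not given, and the weakest listed peaks stood at 8 steps of the signal in replicate 1 and at 5 in replicate 2, where a step is the smallest unit of which all signals were whole multiples. Replicate 1 alone left 399 CpG-rich promoters without a peak and replicate 2 alone left 294. A promoter that is open in few cells of this mixed tissue cannot be told apart from one that is weakly open in many.

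The tissue label was checked on promoter peaks of marker genes. A peak in both libraries was present at 8 of 8 pan-neuronal genes, at 6 of 7 genes of cortical excitatory neurons, at 5 of 6 astrocyte genes and at 1 of 7 interneuron genes. Among the neuronal genes, Syt1, a synaptic vesicle calcium sensor, had the strongest pan-neuronal peak (signal 2.89 in replicate 1 and 4.61 in replicate 2), and Camk2a, a kinase of excitatory synapses, the strongest of cortical excitatory neurons (2.48 and 3.37). Oligodendrocyte lineage genes had such a peak at 4 of 6, microglial genes at 3 of 6 and endothelial and mural genes at 4 of 8. Of 10 genes of hindbrain, muscle and liver, 3 had one. Among these 3 were Egr2 (signal 2.10 in replicate 1 and 3.62 in replicate 2) and Actn2 (1.16 and 2.09), so peaks were not limited to markers of cortical cells. The 2 of the 10 that were CpG-rich, En1 and Hoxa5, were both promoters without a peak.

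The DNA just before the start shows what kind of sequence stayed without a peak. The stretches below are the 250 bases before the own start, read 5′ to 3′ on the gene's strand in the mm10 reference, with each CpG in capitals. For each of 6 gene lists the member with the most CpG in these bases is shown. Hoxa13 (chr6:52260881-52261130, minus strand, 35 CpG) stands for the Hox clusters. Lmx1b (chr2:33640512-33640761, minus strand, 39 CpG) stands for regulators of other regions and organs. Neurog2 (chr3:127632885-127633134, plus strand, 8 CpG) is the 1 member from the list of forebrain and cortical regulators. Wnt3a (chr11:59290753-59291002, minus strand, 41 CpG) stands for the secreted signals, Fkbp6 (chr5:135350045-135350294, minus strand, 17 CpG) for the germ line and Smagp (chr15:100636941-100637190, minus strand, 27 CpG) for epithelial genes. None of these stretches overlaps a gene body annotated in GENCODE M21. For Lmx1b, however, the nearest start in the RefSeq annotation lies 587 bp from the own start. The end of its stretch reads from an ATG to the last base without a stop codon. This stretch may therefore hold coding sequence and not only DNA before the start.
Hoxa13: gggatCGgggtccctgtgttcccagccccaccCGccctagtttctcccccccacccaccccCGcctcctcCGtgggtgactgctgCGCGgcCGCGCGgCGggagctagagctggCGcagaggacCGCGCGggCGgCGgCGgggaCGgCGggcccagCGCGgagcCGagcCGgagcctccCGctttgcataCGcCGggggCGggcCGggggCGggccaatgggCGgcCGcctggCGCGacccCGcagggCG
Lmx1b: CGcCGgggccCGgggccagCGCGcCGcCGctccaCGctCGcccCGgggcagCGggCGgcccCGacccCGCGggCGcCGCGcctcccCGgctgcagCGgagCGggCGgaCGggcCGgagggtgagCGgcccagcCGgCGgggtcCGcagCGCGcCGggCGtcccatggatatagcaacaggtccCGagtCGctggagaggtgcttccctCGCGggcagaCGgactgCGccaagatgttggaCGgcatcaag
Neurog2: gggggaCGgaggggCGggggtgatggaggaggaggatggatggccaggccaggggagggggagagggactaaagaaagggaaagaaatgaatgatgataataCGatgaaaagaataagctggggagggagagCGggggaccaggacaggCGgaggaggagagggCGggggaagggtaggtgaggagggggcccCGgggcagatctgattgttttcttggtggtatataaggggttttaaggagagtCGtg
Wnt3a: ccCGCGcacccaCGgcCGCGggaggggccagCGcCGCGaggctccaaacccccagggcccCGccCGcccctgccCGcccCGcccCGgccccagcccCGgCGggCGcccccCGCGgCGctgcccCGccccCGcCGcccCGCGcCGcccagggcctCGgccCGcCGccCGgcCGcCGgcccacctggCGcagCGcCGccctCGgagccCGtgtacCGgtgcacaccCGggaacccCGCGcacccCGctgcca
Fkbp6: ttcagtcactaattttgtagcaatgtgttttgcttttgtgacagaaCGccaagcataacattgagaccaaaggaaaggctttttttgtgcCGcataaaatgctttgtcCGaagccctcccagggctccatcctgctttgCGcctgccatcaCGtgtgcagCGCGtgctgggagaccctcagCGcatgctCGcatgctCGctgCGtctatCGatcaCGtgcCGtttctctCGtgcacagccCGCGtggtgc
Smagp: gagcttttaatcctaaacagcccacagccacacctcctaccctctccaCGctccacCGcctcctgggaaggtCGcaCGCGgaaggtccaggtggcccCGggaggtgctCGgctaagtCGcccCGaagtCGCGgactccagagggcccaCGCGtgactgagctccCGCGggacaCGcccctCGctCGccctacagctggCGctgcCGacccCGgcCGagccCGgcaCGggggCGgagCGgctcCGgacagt

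For comparison, the same stretch is shown for Rplp0, which encodes a protein of the ribosomal stalk. Among the CpG-rich housekeeping genes, it had the highest peak signal of those whose 250 bases are free of exons (8.79 in replicate 1 and 11.7 in replicate 2). Its stretch (chr5:115559217-115559466, plus strand) holds 19 CpG, fewer than 4 of the 6 stretches without a peak. Those 6 were picked for their CpG number in these bases and Rplp0 for its signal, so this difference says nothing about the groups.
Rplp0: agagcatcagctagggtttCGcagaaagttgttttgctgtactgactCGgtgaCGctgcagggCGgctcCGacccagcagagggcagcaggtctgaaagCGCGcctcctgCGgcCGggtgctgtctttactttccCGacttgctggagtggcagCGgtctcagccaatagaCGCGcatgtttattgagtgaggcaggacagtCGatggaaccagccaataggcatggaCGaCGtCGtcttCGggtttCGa

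CpG content and lack of a peak went opposite ways over the whole gene set. Of genes with an observed/expected ratio under 0.1, 91.4% lacked a peak, against 14.8% from 0.5 to 0.6 and 9.80% from 0.6 to 0.7. Above the limit of 0.7 the share was 4.89% up to 0.8, 2.46% up to 0.9, 2.77% up to 1 and 1.65% up to 1.1. The 37 genes above 1.1 all had a peak, which allows a share without one of up to 8.11%, taking 3 counts of the total as the most that a count of 0 allows. The promoters described here are thus the tail of this curve, where a missing peak is rare.

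**Figure D1:**
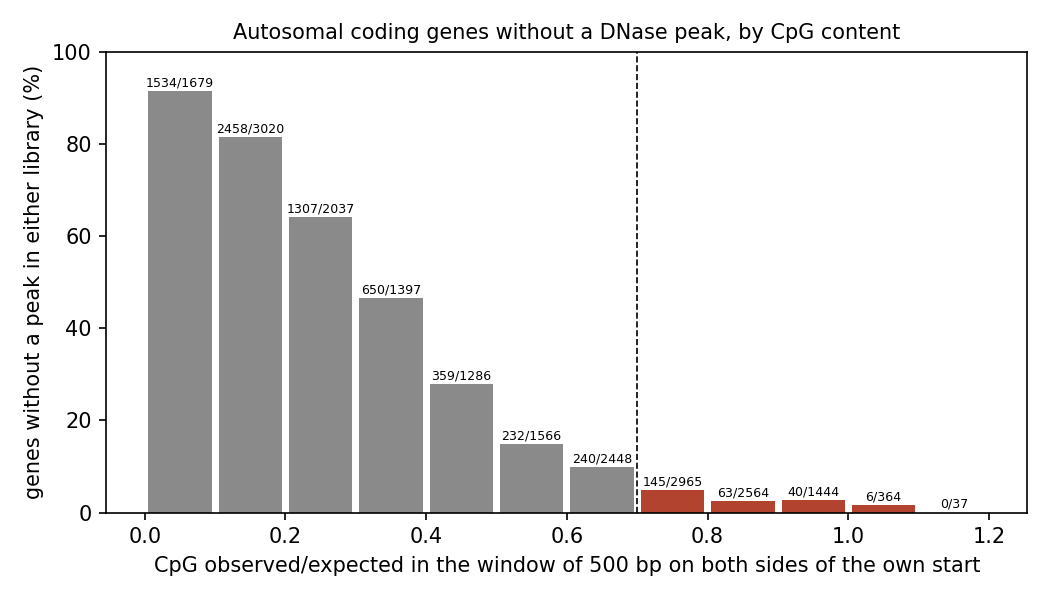
Share of autosomal coding genes without a peak in either library (y axis, %) in bins of the CpG observed/expected ratio of the window around the own start (x axis). Numbers above the bars are genes without a peak over all genes of the bin, the dashed line is the limit of 0.7, and the coloured bars to its right hold the 254 promoters described; the share falls from 91.4% in the lowest bin to 0 of 37 genes in the highest.

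In the Hox clusters, whose genes encode the transcription factors that set position along the trunk and limbs, most promoters lacked a peak. Of their 39 genes, 17 had a CpG-rich own start and 15 of these lacked a peak (88.2%, Wilson interval 65.7 to 96.7, beside 3.44% of all CpG-rich promoters). The interval takes each gene as a separate draw. Genes of a cluster are neighbours, and the windows of Hoxd3 and Hoxd4 overlap, so it may be too narrow. With CpG-poor starts included, 33 of the 39 lacked one. The 2 CpG-rich exceptions were Hoxa4 and Hoxb5, each with a weak peak in replicate 2 (signal 0.440 and 0.493) and none in replicate 1, so that in replicate 1 alone all 17 were without. Both were named after their values were seen.

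All 4 clusters were represented. The run Hoxd9, Hoxd8, Hoxd3 and Hoxd4 on chromosome 2, next to one another in the list of coding genes, had no peak at any start, and neither did Hoxb9, Hoxb8 and Hoxb7 on chromosome 11 or Hoxc13, Hoxc12 and Hoxc11 on chromosome 15. Hoxa13, a gene of the digits and genital tubercle whose sequence is shown above, had 126 CpG in its window, an island of 1462 bp and its nearest peak at 3660 bp in replicate 1 and 3640 bp in replicate 2. Hoxd13, its counterpart in the HoxD cluster, had 118 CpG and a peak at 4463 and 4450 bp. Hoxb9 had 90 CpG and a peak at 7444 bp in both libraries, and Hoxd1 had 94 CpG and peaks at 14881 and 11450 bp. The distances in the animals lay within 20 bp of each other for Hoxa13, Hoxd13 and Hoxb9 and farther apart for Hoxd1. The 15 Hox promoters had a median of 70 CpG (38 to 126) and a median island of 1418 bp (707 to 2137).

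Transcription factors listed as patterning other parts of the nervous system or other organs formed the largest named group. Of 74 such genes with a CpG-rich own start, 48 lacked a peak (64.9%, Wilson interval 53.5 to 74.8, beside 3.44%). In single libraries the count was 57 in replicate 1 and 52 in replicate 2. Among them were En1 and En2 of the midbrain and hindbrain border, Lmx1a and Lmx1b of dopamine neurons and limb, Nkx6-1 of ventral spinal cord and pancreatic islets, Mnx1 of motor neurons, Ptf1a of pancreas and cerebellum, Gata2 of blood progenitors, Hand2 of heart and Cdx1 of the posterior gut. These 10 were picked for their known roles after the members were seen.

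The 4 with the most CpG are given with their values. Irx2, an Iroquois homeobox gene, had 124 CpG and an island of 1761 bp, and its nearest peak lay 107320 bp away in replicate 1 and 63101 bp in replicate 2. Six2, which maintains nephron progenitors, had 119 CpG, an island of 1971 bp and peaks at 11879 and 3899 bp. Hmx1, a homeobox gene of the developing face, had 118 CpG and peaks at 9046 and 9035 bp. Barhl2, a homeobox gene of retina and spinal cord, had 116 CpG, an island of 2663 bp and peaks at 3895 and 3898 bp. These genes thus stood in very different surroundings, from peaks within 4 kb in both animals to none within 60 kb.

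The longest island of the whole set, 4502 bp, was that of Tlx3, a homeobox gene of spinal sensory neurons. Its nearest peak was 26729 bp away in both libraries, and it was picked for this value. Over the 48 regulators, the median window held 86.5 CpG and the median island was 1654 bp (664 to 4502). The 26 regulators of the same list that did have a peak had a median of 81.5 CpG and still longer islands, with a median of 2455 bp. Long islands therefore did not set the regulators without a peak apart from those with one.

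The peaks at those 26 were weak. Their signal ranged from 0.249 to 0.969 with a median of 0.498 in the 17 with a peak in replicate 1, and from 0.303 to 1.38 with a median of 0.622 in the 22 with a peak in replicate 2. The medians over CpG-rich promoters with a peak in both libraries were 2.64 and 4.05 (n = 6935). The highest values in the list belonged to Ebf2, a factor of brown fat and olfactory neurons (0.969 in replicate 1 and 1.09 in replicate 2), and to Sox21 (0.830 and 1.38), a relative of the neural progenitor factor Sox2. Both were named after their values were seen.

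The list of forebrain and cortical regulators differed in count. Of 31 with a CpG-rich own start, 1 lacked a peak (3.23%, Wilson interval 0.572 to 16.2, beside 3.44%). The other 30 had peaks with a median signal of 1.32 in the 26 seen in replicate 1 and of 1.49 in the 29 seen in replicate 2. These medians too lay below the 2.64 and 4.05 of CpG-rich promoters with a peak in both libraries. The 1 gene without a peak was Neurog2, a proneural factor of dividing progenitors of the dorsal forebrain. It had 84 CpG in the window, an island of 2591 bp and its nearest peak at 1052 bp in replicate 1 and 1026 bp in replicate 2. Only 8 of its CpG lie in the 250 bases before the start shown above. The count rested on both libraries together, since 5 of the 31 lacked a peak in replicate 1 alone (16.1%, beside 5.41% of CpG-rich promoters there) and 2 in replicate 2 alone (6.45%, beside 3.99%). It also depended on how the lists were drawn. Otx2, Vax1, Otp, Foxb1 and Nkx2-4, which also have roles in the forebrain, lacked a peak and were counted among regulators of other regions.

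Secreted signals of development were the next group, with 12 of 33 CpG-rich starts without a peak (36.4%, Wilson interval 22.2 to 53.4, beside 3.44%). In replicate 1 alone it was 17 and in replicate 2 alone 12. Wnt ligands made up 6 of the 12, namely Wnt2b, Wnt3a, Wnt4, Wnt5b, Wnt6 and Wnt9b. Wnt4, which acts in kidney and female reproductive tract, had 137 CpG, the most of the list, an island of 1713 bp and peaks at 10487 and 11574 bp. Wnt5b had 127 CpG, and the nearest peaks were 22027 and 22034 bp from its own start but 2855 bp from another of its starts. Fgf8, a signal of early patterning centres, had 102 CpG and peaks at 3526 and 2466 bp. Ihh, the hedgehog ligand of growing cartilage, had 101 CpG, an island of 2504 bp and peaks at 2536 and 2532 bp.

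The remaining members of the list were Bmp8b, Gdf7, Grem1 and Rspo1, which are a pair of BMP family ligands, a BMP antagonist and an enhancer of Wnt signalling. Grem1 differed most between the animals, with its nearest peak at 49115 bp in replicate 1 and at 920 bp in replicate 2. In the same list, 21 CpG-rich promoters had a peak. Examples are Wnt7a, a Wnt ligand of the central nervous system (signal 1.18 and 2.30), Fgf18 (2.94 and 3.11) and the BMP antagonist Nog (0.996 and 1.00), picked after their values were seen. Ligands of 1 family thus fell on both sides.

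**Figure D2:**
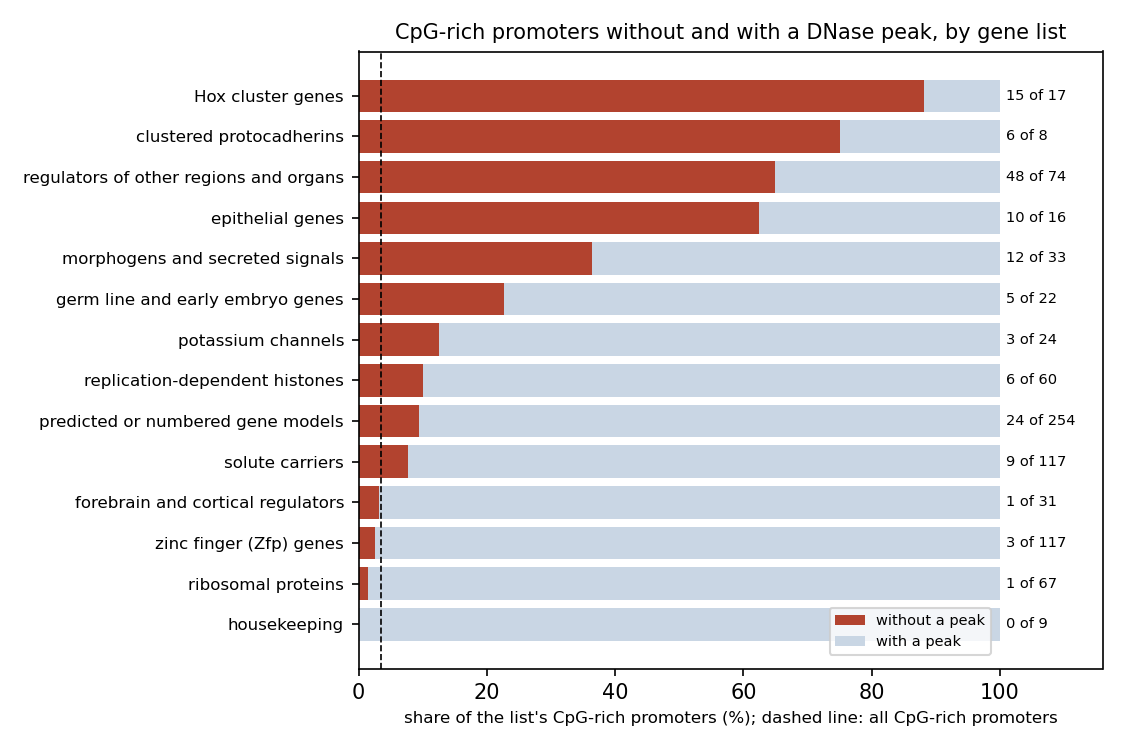
Share of the CpG-rich promoters of each gene list (y axis) without a peak in either library and with a peak (x axis, %). The numbers at the right are members without a peak of all CpG-rich promoters in the list, the dashed line is the 3.44% of all CpG-rich promoters, and Hox genes (15 of 17) lie far above it while forebrain regulators (1 of 31) lie close to it when both libraries are used.

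Genes of the germ line and early embryo lay mostly on the side with a peak where they were CpG-rich, but less so than CpG-rich promoters as a whole. Of 22, 5 lacked a peak (22.7%, Wilson interval 10.1 to 43.4, beside 3.44%). With the smaller peak lists it was 8 of 22, at an observed/expected limit of 0.6 it was 14 of 42, and at a limit of 0.8 it was 0 of 7. The 5 were Ddx4, an RNA helicase of germ cells, Sycp1, a protein of the synaptonemal complex of meiosis, Slc25a31, an ADP/ATP carrier of testis, Fkbp6, which acts in meiosis and in silencing of transposons, and Rpl10l, a testis copy of a ribosomal protein gene. Their windows held 54 to 73 CpG, and their islands were short, from 829 to 1146 bp. Ddx4 had its nearest peak at 8106 bp in both libraries, Fkbp6 at 7649 and 7637 bp, and Sycp1 at 43841 and 43861 bp from the own start but 29703 and 8652 bp from another start. Rpl10l lay farthest, with peaks at 126501 and 71811 bp. Germ line genes with a peak in both libraries included Dazl (signal 1.06 and 1.36), an RNA-binding protein of germ cells named after its values were seen.

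A list of epithelial genes was drawn up after the members had been seen, and its count supports nothing. Of 16 CpG-rich starts, 10 lacked a peak (62.5%, beside 3.44%). They were Ovol1 and Grhl2, transcription factors of epithelia, the splicing factor gene Esrp2, the membrane protease gene St14, the integrin gene Itgb4, and Bspry, Kdf1, Lad1, Marveld3 and Smagp. Ovol1 had 107 CpG, an island of 1620 bp and peaks at 6935 and 6895 bp. Smagp, shown above, had 102 CpG and peaks at 20800 and 14420 bp. Peaks at the other 6 were mostly weak: Cdh1, which encodes E-cadherin of epithelial junctions, had none in replicate 1 and a signal of 0.303 in replicate 2, and the exception was Grhl1 with 2.51 and 4.18.

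Genes of neuronal transmission gave 1 promoter in each of 3 lists. Of 7 CpG-rich genes of transmitter and peptide identity, 1 lacked a peak, the vesicular acetylcholine transporter gene Slc18a3, with 89 CpG, an island of 2717 bp and a peak 8251 bp away in both libraries. Of 9 genes for receptors of serotonin, dopamine, adrenaline and acetylcholine, the 1 was Drd5, a dopamine receptor, with 76 CpG and peaks at 11327 and 10165 bp. Of 12 genes for receptors of glutamate, GABA and glycine, it was Grin2c, an NMDA receptor subunit best known from cerebellar granule cells, with 79 CpG and a peak at 3338 bp in both. Each of these 3 counts is 1 gene, so their shares of 14.3%, 11.1% and 8.33% say little beside 3.44%.

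Among 24 CpG-rich potassium channel genes, 3 lacked a peak (12.5%, beside 3.44%). Kcnk9, a background leak channel, had 94 CpG, an island of 2102 bp and peaks at 568 and 1301 bp. Kcnk15, of the same family, had 73 CpG and peaks at 5009 and 4986 bp. Of 117 solute carrier genes 9 lacked a peak (7.69%, Wilson interval 4.10 to 13.98, beside 3.44%), among them Slc6a11, the GABA transporter GAT-3, with 85 CpG and peaks at 1400 and 1326 bp, and Slc5a5, the iodide transporter of thyroid, with 80 CpG and peaks at 904 and 944 bp. Slc45a3, a transporter-like gene of prostate, had 94 CpG and its nearest peaks 18774 bp from the own start and 2777 bp from another start in both libraries.

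Large families of broadly used genes were close to the background or below it. Zinc finger genes named Zfp had 3 of 117 without a peak (2.56%), namely Zfp296, Zfp541 and Zfp618. Zfp618 had 132 CpG, and a peak lay 1240 bp from another of its starts in both libraries although its own start was 22813 and 22973 bp from any. Ribosomal protein genes had 1 of 67 (1.49%), the testis copy Rpl10l. Housekeeping genes had 0 of 9, which allows a share of up to 33.3% by the same limit of 3 counts.

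Clustered protocadherins, cell surface proteins of which each neuron uses few of many alternative promoters, were few but mostly without a peak. Of 8 with a CpG-rich own start, 6 lacked one (Wilson interval of the share 40.9% to 92.9%, beside 3.44%): Pcdha5, Pcdha6, Pcdha7, Pcdha8, Pcdhga10 and Pcdhga11, all on chromosome 18. Such clustered genes are not separate draws, so this interval too may be too narrow. Their windows were the poorest in CpG of any class, with a median of 37.5 and a GC content of 45.5%. Pcdha5 had its nearest peak at 7124 bp in replicate 1 and at 129461 bp in replicate 2, and Pcdha6 at 14315 and 122270 bp, so the nearest listed peak was far closer in replicate 1 for both. Pcdhga11 had 46 CpG and a peak at 5854 bp in both.

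A part of the set consists of repeated DNA, to which a short read can be hard to assign uniquely. The read length is not known here, so stretches of 36 bases (36-mers) served as a stand-in for reads. In 26 of the 254 windows (10.2%), fewer than 50% of the 36-mers occurred once in the genome, against 35 of 7120 CpG-rich promoters with a peak (0.492%). Among CpG-poor promoters without a peak it was 927 of 6780 (13.7%). All 6 histone genes of the set belong here (of 60 CpG-rich ones, 10.0%, beside 3.44%). Hist2h3c1 and Hist2h3c2, copies of 1 histone H3 gene, each had 3.73% unique 36-mers, and Hist1h2ap and Hist1h2br, which lie next to each other, had 0. The lack of a peak at these windows cannot be told apart from a lack of assigned reads.

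Repeats also made the longest runs of neighbours. Fam177a, Srp54b, 1700047I17Rik2 and Srp54c on chromosome 12 formed a run of 4 coding genes in which 36-mers were 0% unique. Phf10, 9030025P20Rik, Gm3417 and Gm3435 on chromosome 17 formed another, with 28.7% at Phf10, a subunit of a chromatin remodelling complex, and 0 to 3.11% at the other 3. The run Hoxd9, Hoxd8, Hoxd3 and Hoxd4 was the only one of 4 with unique sequence, at 88.9% or more. In all, 40 promoters lay in 16 runs of 2 or more, and 214 stood alone. The windows of 12 overlapped that of another, such as those of Hoxd3 and Hoxd4, whose starts are 2 bp apart, so these are not separate observations.

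Predicted or numbered gene models gave 24 without a peak of 254 CpG-rich starts (9.45%, Wilson interval 6.43 to 13.7, beside 3.44%). A530084C06Rik had 123 CpG, an island of 2870 bp and peaks at 773 bp in replicate 1 and 27515 bp in replicate 2. Gm21863 lay 109696 and 242436 bp from a peak with 43.0% of its 36-mers unique. Of the 5 promoters farthest from a peak, 4 had under 50% unique 36-mers (Entpd4b, Gm16867, Gm21863 and 1700047I17Rik2), and Gm21738 had 66.5%. Among uniquely readable promoters, Twist1, a factor of mesoderm and neural crest picked after its values were seen, was 144859 bp and 95010 bp from the nearest peak.

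Each library also had a list of positions with a cut rate called at a false discovery rate (FDR) under 0.05. The threshold of the peaks is not given, so it is not known whether these lists reach below it. A low count therefore cannot show that partly open chromatin is lacking. These lists come from the same libraries as the peaks that chose the members, so the counts are descriptions. Positions were called in the own window of 11 promoters in replicate 1 (4.33%) and of 13 in replicate 2 (5.12%), of 3 in both and of 21 in either. Over all autosomal coding genes the shares were 58.5% in replicate 1 and 60.5% in replicate 2, and over CpG-rich promoters with a peak 97.4% and 99.0%. CpG-poor promoters without a peak had lower shares than the set, 0.973% and 1.34%. In either library the share was 8.27% in the set, 2.02% in those CpG-poor promoters and 61.6% in all genes. In both libraries it was 1.18%, 0.295% and 57.4%. No footprint, a short protected stretch inside a cut region, fell in any of the 254 windows in either library, and none in the 6780 CpG-poor windows without a peak, so this 0 is shared with the other promoters lacking a peak.

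The signal was weak in nearly all of the 21. B430218F22Rik stood apart, with 353 called positions in replicate 1 and 568 in replicate 2 and a lowest FDR of 1.77e-12 and 6.04e-21. Its nearest peak lay 551 bp from the own start in both animals, just beyond the window's edge. Next came Slc10a4, a vesicular carrier gene of cholinergic and monoamine neurons, with 0 and 48 positions and a lowest FDR of 0.0144, and 2810459M11Rik with 41 and 0 and a lowest FDR of 0.0213. Stx11, a syntaxin of blood cells, had 4 and 32 positions, and Hist2h3c2 had 0 and 32. None of the 15 Hox promoters, of the 12 secreted signals or of the 5 germ line genes had a called position. Over all 254 promoters the share in either library was 8.27%, so in groups this small a count of 0 says little. Among the regulators of other regions and Neurog2, 1 of 49 had any, Twist1, with 19 in replicate 2.

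Peaks were present in the neighbourhood of most of these genes. The median distance from the own start to the nearest peak was 7101 bp in replicate 1 and 7139 bp in replicate 2, and 6028 bp to the nearest peak of either library. In replicate 1, 15 promoters had a peak within 1 kb, 74 within 1 to 5 kb, 117 within 5 to 20 kb and 48 farther away, and in replicate 2 the counts were 12, 82, 112 and 48. For 172 of 254 the distances in the animals differed by at most 500 bp. In 78 the nearest peak was more than 10 kb away in both libraries.

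Within the gene body and 50 kb on both sides, the median number of peaks shared by both libraries was 7, against 9 for CpG-rich promoters with a peak. Per 100 kb it was 5.31 against 6.07. The 64 members of the transcription factor lists had a median of 3.84 per 100 kb, and the 58 CpG-rich genes of the same lists with a peak had 3.85. Irx2, Twist1, Foxb1 and Nkx2-4 had 0 shared peaks. At the other end, Tmem117 had 28, but it is the longest gene of the set (467 kb), so its count covers more DNA. Ppm1n, a phosphatase gene, had 21, Gm12184 and Slc6a11 20 each, and Draxin, which encodes a guidance cue of commissural axons, 18. These counts are not per 100 kb. A promoter without a peak thus occurred both in deserts and amid many open sites.

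**Figure D3:**
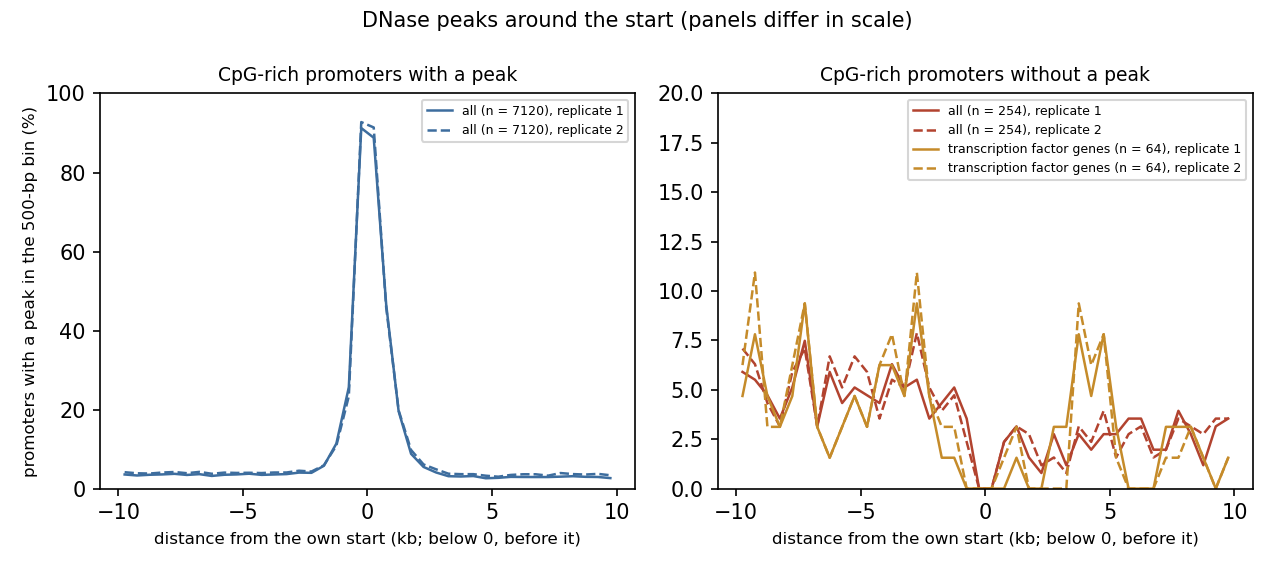
Percent of promoters with a peak in each bin of 500 bp (y axis, with a different scale in each panel) by distance from the own start in kb (x axis), solid for replicate 1 and dashed for replicate 2. CpG-rich promoters with a peak rise to 91.3% and 92.8% just before the start, while those without a peak, and the 64 transcription factor genes among them, are at 0 within 500 bp by the rule and below 11% elsewhere.

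The genes themselves were short and simply annotated beside CpG-rich genes with a peak, but not beside other genes without one. Their median length was 10.7 kb, against 29.2 kb for CpG-rich genes with a peak, and 113 of 254 (44.5%) had 1 annotated start, against 10.7%. The median number of starts was 2 against 5. More starts give more windows in which a peak can fall, and 42 more CpG-rich genes had no peak at their own start but one at another. The part of the rule in this difference was not tested. A coding gene on the opposite strand began within 1 kb before the start in 8 (3.15%), against 13.97% of CpG-rich promoters with a peak. CpG-poor genes without a peak had a median length of 7.84 kb and a median of 2 starts. Of them, 40.6% had 1 annotated start and 0.885% such a neighbour.

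CpG islands of the set and of open promoters had nearly the same median length. An island was measured as the run of windows of 200 bp with at least 50% GC and an observed/expected ratio of at least 0.6. Its median length was 1193 bp against 1164 bp, while islands of 2 kb or more were 30 of 254 (11.8%) against 6.60%. Regulators of other regions with Neurog2 had a median of 1664 bp, Hox genes 1418 bp and secreted signals 1349 bp, all above the median of open promoters. Epithelial genes had 1079 bp, repeated promoters 1031 bp and germ line genes 979 bp, and the 131 promoters in no class had 1119 bp. The windows themselves held a median of 79 CpG in both groups, with a GC content of 64.0% against 62.4%.

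**Figure D4:**
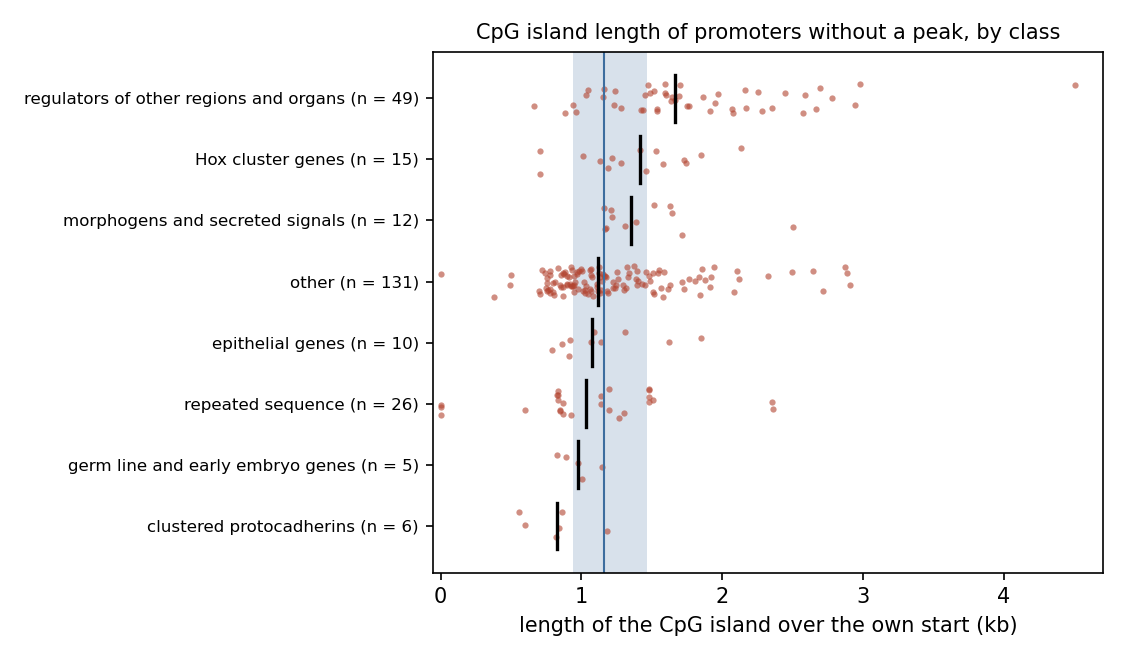
Length of the CpG island over the own start in kb (x axis) for each of the 254 promoters without a peak (points), by class (y axis), with a black bar at each class median. The blue line and band are the median and the middle 50% of the 7120 CpG-rich promoters with a peak; regulators of other regions, with Neurog2 among them (median 1664 bp), lie mostly to the right of the line and protocadherins (median 827.5 bp) to its left.

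Letters of some factors that bind active CpG-rich promoters were rarer in the set than in CpG-rich promoters with a peak. Motifs were matched on both strands in the window of 1001 bp. The ETS core CCGGAAG occurred in 29 of the 254 (11.4%, Wilson interval 8.07 to 15.9), against 33.2% (32.1 to 34.3) of CpG-rich promoters with a peak and 19.5% of all autosomal coding genes. The letters GCGCATGCG of NRF1, a regulator of mitochondrial genes, occurred in 1 (0.394%, interval 0.0695 to 2.20), against 6.32% and 3.02%, and the 1 was Ovol1. The letters AAGATGGCG of YY1 occurred in 3 (1.18%, interval 0.402 to 3.41), Bik, Mmrn1 and Neurog2, against 7.39% and 3.60%. The cyclic AMP response element TGACGTCA occurred in 5 (1.97%), against 5.59% and 3.33%, in Barhl2, Foxd3, Mterf1b, Skor2 and Uncx. The X-box letters GTTGCCAT occurred in 1 (0.394%, interval 0.0695 to 2.20), Grhl2, against 2.39% (2.06 to 2.77) and 2.77%. As these intervals overlap, the X-box letters were not clearly rarer. These genes are named for holding the letters, and a match is not a bound site. In CpG-poor promoters without a peak the shares were 5.66% for ETS, 0.472% for NRF1 and 0.516% for YY1. The cyclic AMP response element stood at 1.17% there and the X-box at 2.64%. Apart from the X-box, low shares were thus also seen in other promoters lacking a peak and were not particular to the set.

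For other letters the shares were as follows. The GC box GGGCGG of the Sp family was found in 92.5% of the set, 93.8% of CpG-rich promoters with a peak and 61.4% of all genes. The E-box CACGTG stood at 24.0% against 22.9% and 17.3%, the E2F letters TTCCCGCC at 11.0% against 12.8% and 7.25%, and the TATA box TATAAA at 18.5% against 17.8% and 32.2%. In the narrower stretch from 250 bases before to 50 after the start, TATAAA was at 9.45% (Wilson interval 6.43 to 13.7). This compares with 5.77% (5.25 to 6.34) of CpG-rich promoters with a peak and 12.7% of all genes. CCGGAAG stood there at 3.94% against 19.5% and 11.0%. In CpG-poor promoters without a peak, TATAAA was at 23.2% and CCGGAAG at 2.43% in this stretch. The letters TTCAGCACC, a part of the RE1 site of the neuronal repressor REST, occurred in 9 windows of 1001 bp (3.54%, interval 1.88 to 6.60), against 1.69% and 1.56%, but 4 of the 9 were repeated histone genes. In the narrower stretch TTCAGCACC occurred in 1 (0.394%), against 0.421% and 0.394%. In the stretches shown above, GC boxes numbered 9 in Wnt3a, 5 in Hoxa13, 2 in Lmx1b and Neurog2 and 1 in Smagp and Rplp0, and Fkbp6 had none.

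**Figure D5:**
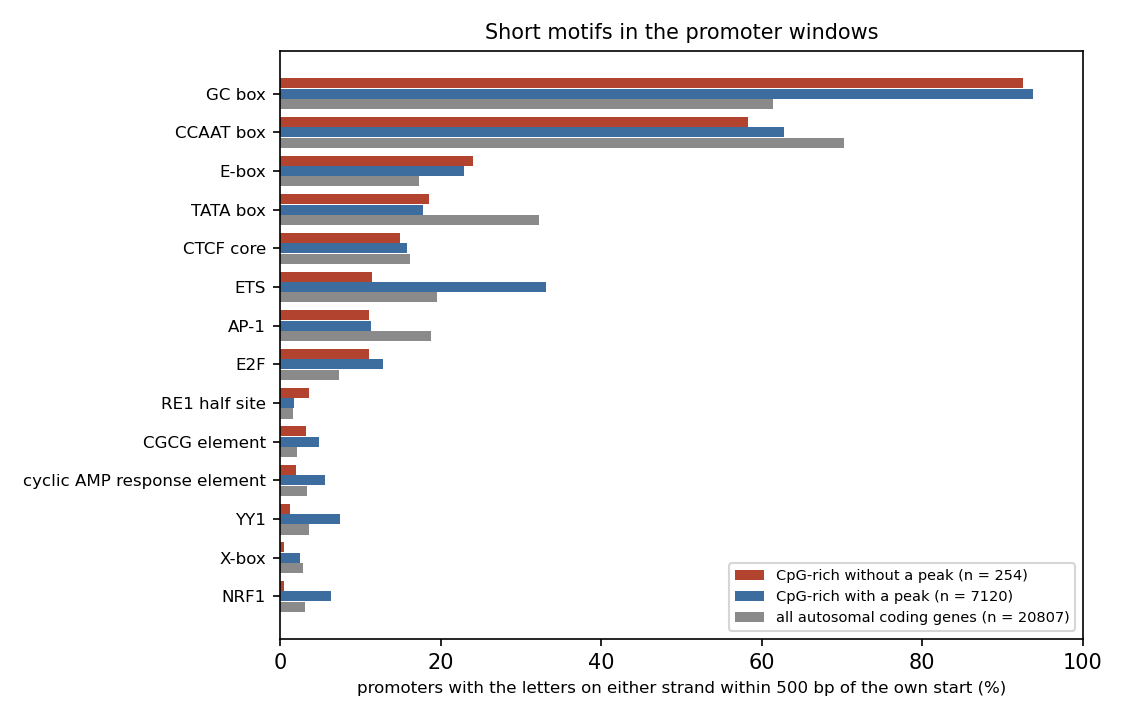
Percent of promoters whose window of 1001 bp holds the letters of each motif on either strand (x axis), for the 254 CpG-rich promoters without a peak, the 7120 with one and all 20807 autosomal coding genes. ETS letters stand at 11.4%, 33.2% and 19.5%, whereas GC boxes stand at 92.5% and 93.8% in the 2 CpG-rich groups.

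The promoters with the most CpG were of many kinds. Cabp7, a neuronal calcium-binding protein gene, led with 153 CpG and had its nearest peak at 22585 bp in replicate 1 but at 843 bp in replicate 2. Tmem200b had 150, with a peak at 565 and 5011 bp and 27 called positions in replicate 1. Wnt4 had 137 and Phf2, a histone demethylase gene, 135, with a peak at 7622 bp in both. She, an adaptor protein gene, had 126, and Bnc1, a zinc finger gene of keratinocytes and germ cells, had 125, with peaks at 32272 and 24909 bp. A high number of CpG thus went with no peak in genes of neurons, chromatin and epithelia alike.

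Members near the limits show how the rule cut. At the CpG limit, Fam114a1 (ratio 0.7006), Zic4 (0.7012) and Phox2a (0.7029) fell just inside, and Scx (0.6997), Atp2a3 (0.6996) and Pcdha3 (0.6994) lacked a peak but fell just outside. At the distance limit, Fbxo43 had a peak 517 bp from another of its starts in replicate 1, and Mcidas had 1 at 523 bp from its own start in replicate 2. Kcnj4, a potassium channel gene, was left out for peaks 480 bp (signal 0.975) and 500 bp (1.54) away, Igf2bp3 for 1 at 484 bp (0.457) in replicate 1, and Foxf2 for 1 at 474 bp (0.493) in replicate 2.

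The set was spread over all autosomes. Chromosome 11 held the most, 26, chromosome 15 the highest share of its CpG-rich promoters (17 of 309, 5.50%) and chromosome 16 the lowest (2 of 252, 0.794%).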

How the data were processed

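DNase-seq peaks, footprints and called positions of 2 libraries were used as the authors deposited them on mm10. Per the labels, each library has 2 peak lists; the aligner, caller and thresholds are not given in the sources used here. Peak signal is the authors' value in the deposited lists, in whole multiples of a step of 0.00692 in replicate 1 and 0.00758 in replicate 2 (100% within 0.05 of a step), and its scale is not given. The deposited position lists hold FDR values, a form of q-value, under 0.05, and cover 30.4 Mb (replicate 1) and 34.6 Mb (replicate 2). The p-value column of the deposited footprint lists is 0.01 throughout, so footprints were only counted. The number of reads is unknown, so precision per promoter could not be given, and intervals cover counting error only.

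Genes came from GENCODE M21 and bases from GRCm38.p6, which is mm10, and all peaks lay within its chromosome lengths. One chromosome copy of these hybrid mice is of CAST/EiJ origin and differs from the reference. An overlap of 1 bp counted, distances run from the own start to the nearest peak edge, and a promoter's signal is that of its highest peak within 500 bp of any start. Islands were followed up to 10 kb from the start, 36-mers were counted over the whole primary assembly, and 14 motifs and 31 gene lists or families were used. Computation was in Python 3.11.15 with numpy 2.4.6, pandas 2.3.3 and numba 0.67.0, and counting functions were tested on simulated data.

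The members and lists were chosen with earlier results of these data known, and the epithelial list and names marked as such came after the values were seen. The rule for named genes took, for each list, all members up to 5 and otherwise the 4 with the most CpG, and the extremes of CpG number, distance, surrounding peaks, called positions, runs and limits; some genes it takes are not reported here. Members whose 250 bases overlap an annotated exon (14 cases) were left out when sequences were picked, which the rule had not foreseen, and Rplp0 was added for comparison. The alternatives were the smaller lists, the own start alone, other CpG limits and windows, each library alone, unique promoters alone, no predicted models and, added later, starts with a RefSeq start within 500 bp.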

Additional observations from a re-analysis of the deposited data

How the results depend on the processing

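The 254 promoters became 462 with the smaller peak lists (6.27% of CpG-rich promoters), of which 22.1% had positions called in both libraries, 6.28% were mostly repeated (under 50% unique 36-mers), and the median distance to a peak of either library was 9148 bp in place of 6028 bp. An observed/expected limit of 0.6 gave 494 promoters (5.03%) with a median island of 1015 bp, and a limit of 0.8 gave 109 (2.47%) with 1397 bp and 14.7% mostly repeated. A window of 250 bp gave 4.10%, with called positions in 10.6% and a median distance of 4741 bp, and one of 1000 bp gave 3.05%. With the own start alone the share was 4.01%. Each library alone, leaving out the other, gave 294 to 399 promoters (3.99% to 5.41%), a median distance of 6648 to 7139 bp, a median island of 1185 to 1188 bp and 6.77% to 9.52% mostly repeated. Called positions then stood in 8.16% to 9.02%, but in 1 library in place of both, which raises the share by construction. Without predicted models 6.52% were mostly repeated. Starts with a RefSeq start nearby, an alternative chosen after seeing the data, left 163 promoters (3.02%) with 6.13% mostly repeated; the RefSeq table holds 171 of the 254. For the other changes the cause was not tested. All other values stayed within their 95% intervals (Wilson for shares, order statistics for medians) or, for counts, within 1.5 times.

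By list, Hox genes ranged from 87.5% to 100% without a peak over the peak lists, starts, single libraries, CpG limits and windows above, regulators of other regions from 62.2% to 85.1%, and forebrain regulators from 3.23% to 16.1%. Secreted signals ranged from 23.5% to 51.5%, germ line genes from 0 to 36.4% and epithelial genes from 37.5% to 81.3%, while all CpG-rich promoters ranged from 2.47% to 6.27%. Forebrain regulators stood at 16.1% in replicate 1 alone, beside 5.41%, and in a window of 250 bp, beside 4.10%. No paired analysis was possible because there is 1 group. Peaks seen in 1 animal decide membership (145 CpG-rich promoters in replicate 2 alone and 40 in replicate 1 alone), and the part of depth in this was not tested.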

Other observations

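Among the 131 promoters in no class, several genes of neural progenitors and of embryonic growth were noticed after their values were seen. Nes, which encodes the progenitor filament nestin, had 70 CpG, and its nearest peaks lay 749 bp from the own start in replicate 1 and 698 bp in replicate 2. Igf2bp1, an RNA-binding protein of embryonic tissues, had 82 CpG, an island of 1854 bp and peaks at 14880 and 14853 bp. Dio3, an imprinted gene for an enzyme that inactivates thyroid hormone, had 111 CpG, an island of 2883 bp and peaks at 9088 and 9068 bp. Celsr1, a cadherin of planar cell polarity in progenitors, had 123 CpG, an island of 2910 bp and peaks at 5191 and 5189 bp.

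Of channels and pores in the same 131, picked in the same way, the water channel gene of glands Aqp5 had 116 CpG and peaks at 5279 and 5259 bp. Trpv4, a cation channel of epithelia and vessels, had 77 CpG and peaks at 9180 and 7534 bp. Hcn2, a pacemaker channel that brain also uses, had 114 CpG, an island of 2116 bp and a peak at 3914 bp in both.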
